A study of Homo sapiens with 2 samples.

Results

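The genes described here are 8 members of the TGF-beta pathway, and the measurement is where the transcriptional co-activator YAP was found on chromatin around them. The members are the ligand genes TGFB1, TGFB2 and INHBA, the receptor genes TGFBR1 and TGFBR2, the signal transducer SMAD3, and the inhibitors SMAD7 and SKIL. Each gene was given a fixed window on the hg19 genome, between 110 and 240 kb long, and a peak was counted for a gene when its summit lay inside that window. The 8 windows cover 1.34 Mb on 7 chromosomes and held 14 of the 9393 peaks in the deposited list. No peak was used to set a window, but the genes were picked with earlier results of the list known.

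The list comes from chromatin immunoprecipitation and sequencing (ChIP-seq) of MCF10A, a human mammary epithelial cell line. The source label calls the cells non-transformed, while another label calls the line a breast cancer line. The 2 libraries were 1 Flag ChIP from cells that express Flag-tagged YAP-5SA and 1 input DNA library, and neither has a replicate. YAP-5SA is a YAP mutant whose LATS phosphorylation sites are changed from serine to alanine, so that the Hippo kinases no longer hold it back. The medium for both libraries contained horse serum, EGF, insulin, hydrocortisone and cholera toxin. Neither a TGF-beta treatment nor a way of introducing the transgene is given in the labels, and cells without the transgene were not analysed here. The peak file is that of the ChIP library, and the input was not analysed here. The file gives no read counts, so depth is unknown, and no expression, so the line could not be checked against its markers. As the ChIP was done once, values below carry no replicate error and no p-value, and peaks do not stand in for replicates.

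TGF-beta ligands are secreted in a latent form and, once released, bind a type II receptor kinase that recruits and activates a type I receptor kinase. The type I receptor phosphorylates SMAD2 and SMAD3, which enter the nucleus with SMAD4 and bind DNA, often beside AP-1 factors. In mammary epithelial cells the pathway is known for growth arrest and for epithelial-mesenchymal transition. YAP does not bind DNA on its own. It is brought to chromatin mainly by TEAD factors, whose core recognition sequence is GGAATG, and YAP and TEAD have been found in complexes with SMADs in other cell systems.

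YAP-5SA peaks were unevenly spread over the pathway. TGFB2 had 6, SMAD3 had 5, TGFBR2 had 2 and SMAD7 had 1, while the windows of TGFB1, INHBA, TGFBR1 and SKIL had 0. The windows of TGFB2 and SMAD3 thus held 11 of the 14 peaks, or 78.6%. The 4 windows without a peak add up to 0.55 Mb. The file lists only what the authors' peak caller kept, so a window without a listed peak is not a window without YAP.

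**Figure D1:**
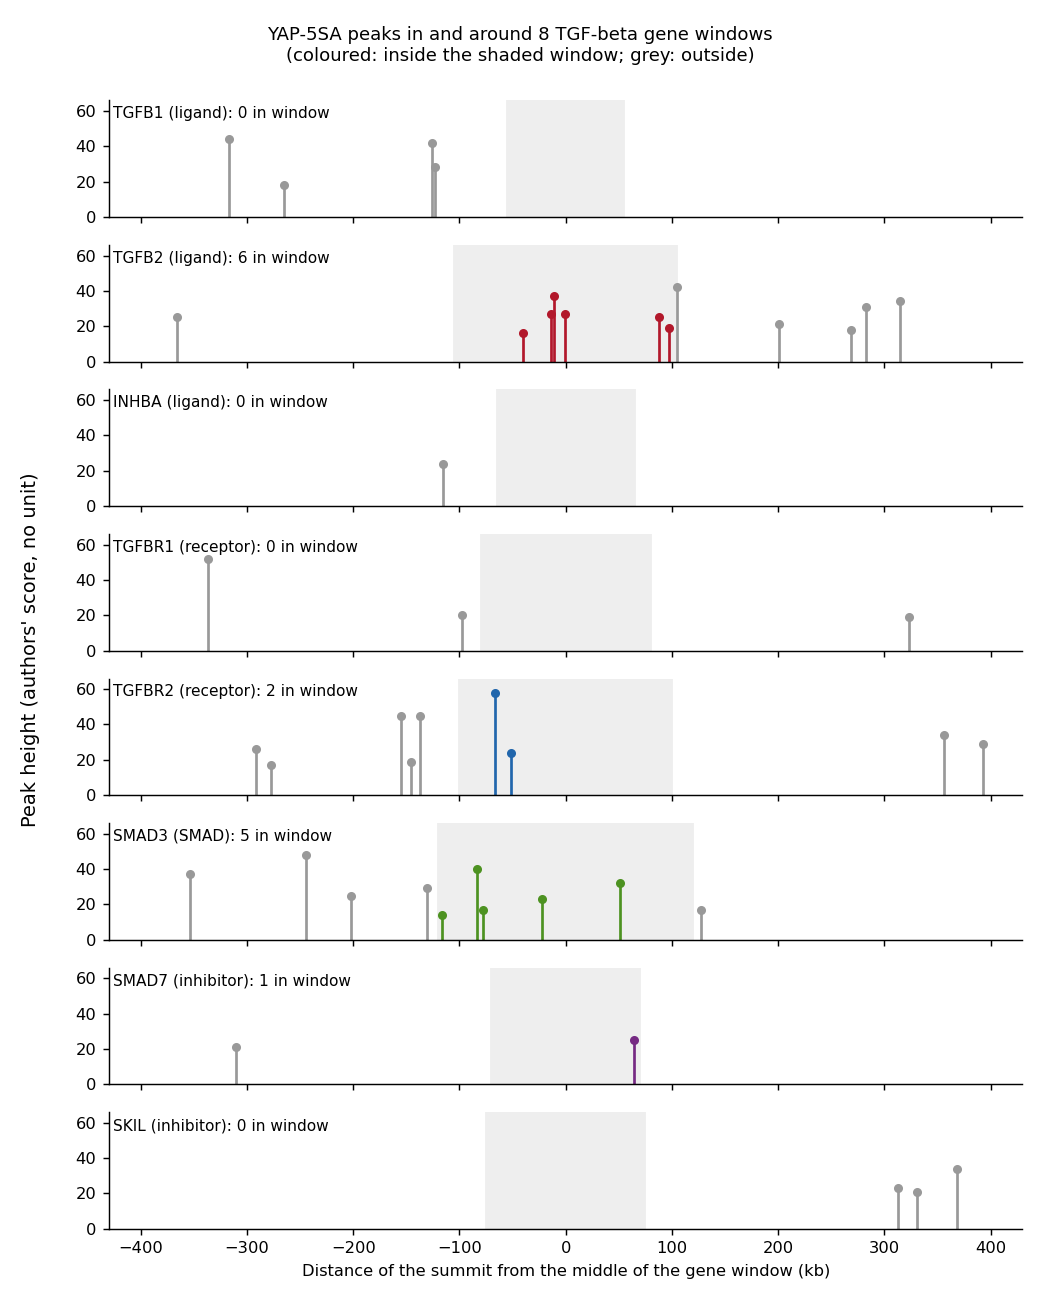
Position and height of each peak in and near the 8 gene windows. The x axis is the distance of the summit from the middle of the window in kb, the y axis is the peak height (the authors' score, with no unit), shading marks the window, coloured stems are the 14 peaks inside and grey stems are peaks up to 300.0 kb outside it. The TGFB2 and SMAD3 windows are the most filled, the tallest coloured stem, of height 58, is in the TGFBR2 window, and the windows of TGFB1, INHBA, TGFBR1 and SKIL are empty.

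Sequence of the peaks themselves needs an hg19 genome, which was not used here, so the sequences shown are the RefSeq promoters of GRCh38.p14, the build of the promoter table. All 8 members matched a promoter. They are shown to set the most occupied window of a ligand gene, TGFB2, beside an empty one, TGFB1. Coordinates of the 2 builds were not joined, so whether a peak covers either promoter cannot be said. Each run is the 250 bases before the annotated start, 5′ to 3′ on the gene's strand. Capitals mark a match to the TEAD core GGAATG, on either strand, or to the AP-1 element TGANTCA.
TGFB2 promoter, chr1:218345086-218345335, plus strand: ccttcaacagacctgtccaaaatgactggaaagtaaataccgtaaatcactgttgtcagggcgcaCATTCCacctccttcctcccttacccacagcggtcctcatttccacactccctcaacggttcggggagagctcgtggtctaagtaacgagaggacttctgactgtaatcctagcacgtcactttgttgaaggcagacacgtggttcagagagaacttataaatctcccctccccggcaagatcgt
TGFB1 promoter, chr19:41353923-41354172, minus strand: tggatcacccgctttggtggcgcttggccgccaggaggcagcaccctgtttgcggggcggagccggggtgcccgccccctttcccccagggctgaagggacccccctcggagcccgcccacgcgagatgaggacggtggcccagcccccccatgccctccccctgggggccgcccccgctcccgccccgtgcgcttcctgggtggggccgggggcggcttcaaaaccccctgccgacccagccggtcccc

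The TGFB2 promoter held 1 TEAD core, read on the opposite strand as CATTCC and beginning 185 bases before the start, and no AP-1 element. The TGFB1 promoter held neither. A match is only a run of letters, and none in this window says nothing about the factor.

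Over all annotated starts, from 250 bases before to 50 after each, the 8 members had 22 promoters. TGFBR1 alone has 8, and some of these overlap, as do those of TGFBR2. A TEAD core was in 2 of these 22, 1 of TGFB2 and 1 of TGFBR1, against 14.0% of all 35116 promoters in the table. The longer core GGAATGT was in the TGFB2 promoter and in no other of the 22, against 3.46% of all promoters. An AP-1 element was in 2 of the 22, against 7.71% of all, and these belonged to TGFBR2 and SMAD3. Counted by gene, 2 of the 8 members had a TEAD core in at least 1 promoter, against 16.7% of all genes in the table. For the AP-1 element it was also 2 of the 8, against 9.37% of all genes. With 8 genes, neither way of counting is read as a difference from the table. The SMAD palindrome GTCTAGAC was in none of the 22 and in 0.202% of all promoters, and the short SMAD element CAGAC, too short to be rare, was in 12 of the 22 and in 45.3% of all. These shares come from sequence alone and do not use the peaks. The 3 matches outside TGFB2 are given with 30 bases each, with the match in capitals.
TGFBR1, TEAD core, chr9:99104548-99104577, plus strand: gggatcttcgggGGAATGctgaagttgatg
TGFBR2, AP-1 element, chr3:30606584-30606613, plus strand: ttgaagttgagTGAGTCActcgcgcgcacg
SMAD3, AP-1 element, chr15:67125675-67125704, plus strand: actgactcctcTGAGTCAtgcccaggggag

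The 2 AP-1 matches, of TGFBR2 and SMAD3, share the letters TGAGTCA. Both genes had peaks in their windows, but so had TGFB2 and SMAD7, which had no AP-1 element. As coordinates of the builds were not joined, a relation of these matches to the peaks was not tested. TGFBR1, with a TEAD core at 1 of its 8 starts, had no peak in its window. Among 26 other pathway genes, which include TGFB3, SMAD2, SMAD4, SMAD6 and the activin receptors, 24 matched the table. Of these 24, 3 had a TEAD core in at least 1 promoter (ACVR1, ACVR2B and TGIF1) and 3 had an AP-1 element (ACVR1, FST and TGIF1). Counted by gene in the same way, the shares over all 27305 genes of the table were 16.7% for the TEAD core and 9.37% for the AP-1 element, and both counts are near those shares. Peaks around these 24 genes were not counted, since hg19 gene positions were not used here.

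TGFB2 encodes a secreted TGF-beta ligand, and its window on chromosome 1, from 218.46 to 218.67 Mb, held more peaks than that of any other member. In order along the chromosome, the 6 summits lay at 218524448, 218550784, 218553984, 218564160, 218653248 and 218662560. Their heights in the same order were 16, 27, 37, 27, 25 and 19. Height is the authors' score for the summit and is used here only to rank peaks of this list. None of the 6 reached 40, the bound used here for a tall peak, which 8.67% of the list reached. Above the list median of 24 were 4 of the 6, against 45.5% of the list.

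The TGFB2 peaks formed 2 close sets separated by 89.1 kb between summits, with the first peak 26.3 kb before the first set. The first set held 3 peaks of heights 27, 37 and 27 within 14.0 kb, from 218550363 to 218564330. Its tallest peak, 537 bp wide, was matched or exceeded in height by 11.8% of the list. Its last peak was narrow, at 393 bp, and 96.2% of the list was at least as wide. The second set began at 218652882 with a peak of height 25 and 1711 bp, the widest of all 14 and matched or exceeded in width by 19 of 9393 peaks, itself included. The summit of this wide peak was off centre, 367 bp from its start and 1344 bp from its end.

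The edge of the TGFB2 window divides the second set. A peak of height 42, at 218670144, lay 144 bp beyond the edge and was not counted, while the last peak inside, of height 19, lay 7.4 kb within it. The peak outside is taller than any of the 6 inside. With it the second set held 3 peaks of heights 25, 19 and 42 within 17.6 kb. After it came 4 more peaks up to 209.6 kb from the edge, whereas before the window the nearest peak, of height 25, was 261.0 kb away.

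TGFB2 had 28.6 peaks per Mb in its window, against 4.50 per Mb over chromosome 1 and 3.45 per Mb over the whole list. Of 12965 tiles of 210 kb laid end to end along all chromosomes, 0.532% held 6 peaks or more. On chromosome 1 alone the share was 1.03% of 1069 tiles. Tiles include gene-poor stretches, whereas the windows were all placed on genes, so the shares are a description of the list. Neither number nor height was corrected for DNA copy number, and its part in any density here was not tested.

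TGFB1, the prototype ligand of the pathway, had no peak from 41.80 to 41.91 Mb on chromosome 19. A tile of its length, 110 kb, held at least 1 peak in 26.9% of cases, so an empty window of this size is the usual case. The nearest peaks lay 68.3 and 70.4 kb before the window, with heights of 28 and 42. After the window the next peak was 513.3 kb away.

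INHBA encodes the subunit of activin A, a ligand of the same family that also signals through SMAD2 and SMAD3. Its window on chromosome 7, from 41.67 to 41.80 Mb, was empty too. At least 1 peak was found in 30.7% of tiles of 130 kb. One peak of height 24 lay 50.1 kb before the window, and the next on the other side was 532.7 kb away.

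Of the receptors, TGFBR2 had peaks in its window and TGFBR1 had not. TGFBR2 encodes the type II receptor, which binds the ligand first. Its window on chromosome 3, from 30.59 to 30.79 Mb, held a peak of height 58 at 30623616 and a peak of height 24 at 30638944, with summits 15.3 kb apart. The first was the tallest of all 14 and was matched or exceeded by 113 of 9393 peaks, or 1.20%. Both were of ordinary width, at 713 and 594 bp.

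Both TGFBR2 peaks lay toward the beginning of the window, 33.6 and 48.9 kb from it, and the remainder had none. A further 3 peaks stood just before the window, 55.4, 45.6 and 36.8 kb from its edge, with heights of 45, 19 and 45. In contrast, no peak was listed for 255.8 kb after the window. Of tiles of 200 kb, 16.1% held 2 peaks or more, so the number of peaks in this window is common in the list while the height of one of them is not.

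TGFBR1 encodes the type I receptor, the kinase that phosphorylates SMAD3. Its window on chromosome 9, from 101.81 to 101.97 Mb, held no peak, and 35.6% of tiles of 160 kb held at least 1. The nearest peak was of height 20 and lay 17.5 kb before the window. No other was closer than 243.5 kb.

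SMAD3, the DNA-binding transducer of the pathway, had 5 peaks on chromosome 15 between 67.30 and 67.54 Mb. The summits were at 67303392, 67336864, 67341912, 67397808 and 67471072. Their heights in that order were 14, 40, 17, 23 and 32. SMAD3 had both the lowest of the 14 peaks, matched or exceeded in height by 97.0% of the list, and 1 of the 2 that reached a height of 40.

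The peaks of SMAD3 were spread along the window rather than gathered in one place. A single pair lay close, at 67336864 and 67341912, with 3.7 kb between the intervals and heights of 40 and 17. The second peak of this pair was 1641 bp wide, which 30 of the 9393 peaks matched or exceeded, itself included, while its height was matched or exceeded by 88.5% of the list. It was therefore wide and low. The other gaps between neighbouring summits were 33.5, 55.9 and 73.3 kb.

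Near the edges of the SMAD3 window, the first peak inside lay 3.4 kb from the edge and was of height 14, and the next one outside lay 10.3 kb before the window with a height of 29. At the far edge a peak of height 17 lay 7.0 kb outside. Farther before the window were peaks of heights 25, 48 and 37, at 81.7, 124.1 and 233.2 kb. In the GRCh38.p14 gene table the protein-coding neighbours of SMAD3 are SMAD6, itself an inhibitory SMAD, and AAGAB. Which of these genes a peak at the edge lies nearest to was not determined, nor was the nearest gene of any other peak in the 8 windows.

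The SMAD3 window had 20.8 peaks per Mb, against 3.61 per Mb over chromosome 15 and 3.45 per Mb over the list. Of 11346 tiles of 240 kb, 1.54% held 5 peaks or more, and on chromosome 15 alone 0.962% of 312 tiles did.

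**Figure D2:**
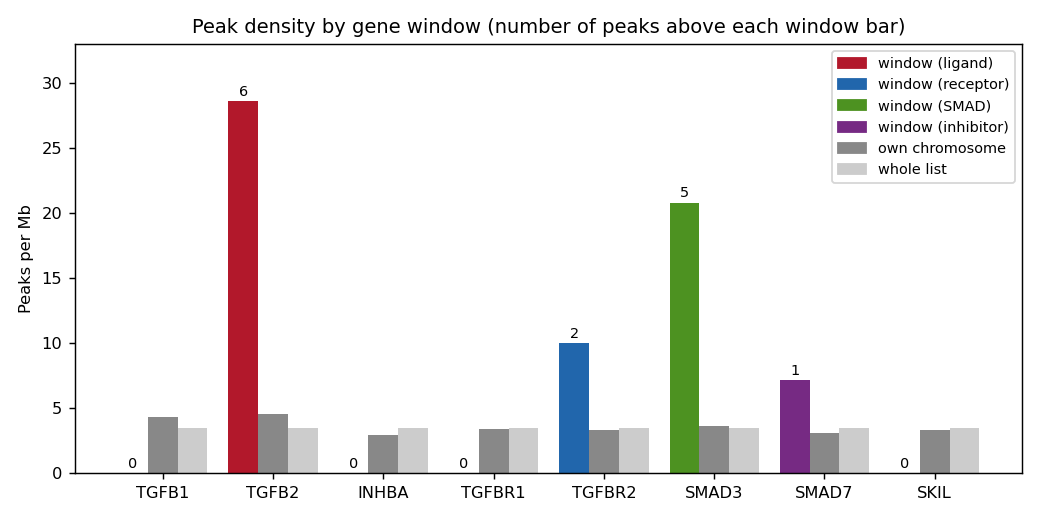
Peaks per Mb (y axis) in each of the 8 gene windows, on the chromosome of that window and in the whole list, with the number of peaks printed above each window bar. The TGFB2 window, at 28.6, and the SMAD3 window, at 20.8, are highest. Those of TGFBR2 and SMAD7, at 10.0 and 7.14 from 2 peaks and 1 peak, are also above the 3.45 of the list. The other 4 are at 0.

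The inhibitors had 1 peak between them. SMAD7 blocks the type I receptor and is itself a rapidly induced target of the pathway. The peak in its window, from 46.39 to 46.53 Mb on chromosome 18, was of height 25, lay at 46524704 and was 697 bp wide. It stood 5.3 kb inside the far edge, and the protein-coding neighbours of SMAD7 in the gene table are CTIF and DYM. The last peak before the window was 240.0 kb away, with a height of 21, and the first after it was 1008.5 kb away, with a height of 19. Tiles of 140 kb held at least 1 peak in 32.3% of cases.

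SKIL encodes SnoN, a co-repressor that binds SMADs in the nucleus. Its window on chromosome 3, from 170.02 to 170.17 Mb, held no peak, and 34.1% of tiles of 150 kb held at least 1. The first peak after the window was 237.6 kb away, with a height of 23, and the last peak before it was 337.9 kb away, with a height of 32.

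**Figure D3:**
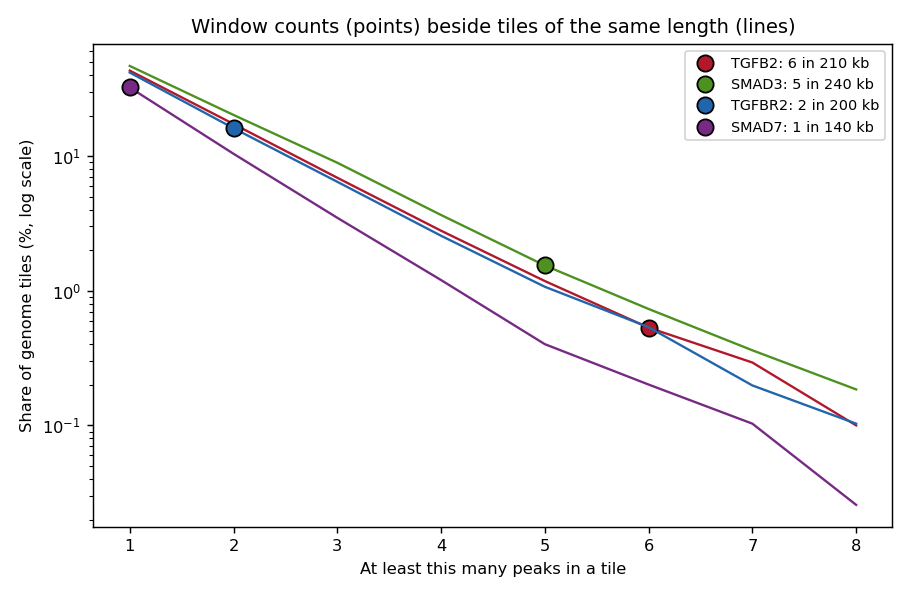
Share of genome tiles (y axis, percent on a log scale) that hold at least a given number of peaks (x axis), with 1 line for tiles of the length of each window that had a peak. Points mark the number found in the window: 6 for TGFB2 at 0.532%, 5 for SMAD3 at 1.54%, 2 for TGFBR2 at 16.1% and 1 for SMAD7 at 32.3%.

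Together the 8 windows had 10.4 peaks per Mb, against 3.45 per Mb over the list, a ratio of 3.03. It was 2.05 without the TGFB2 window and 2.37 without the SMAD3 window. Without both, the other 6 windows held 3 peaks in 0.89 Mb, or 3.37 per Mb, and the ratio was 0.98. Of these 6, the TGFBR2 and SMAD7 windows were at 10.0 and 7.14 per Mb, from 2 peaks and 1 peak, and the others were empty. The TGFB2 and SMAD3 windows were left out together after their counts were seen. Set against the density of each window's own chromosome in place of the list, the ratio of all 8 windows was 2.92.

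In height the 14 peaks were close to the list. Their median was 25, with a lowest of 14 and a highest of 58, against a median of 24 and extremes of 9 and 100 over all 9393 peaks. Above the list median were 8 of 14, or 57.1%, against 45.5% of the list. Peaks of height 40 or more were 2 of 14, or 14.3% (95% Wilson interval 4.01 to 39.9, counting error only), against 8.67% of the list. These were the peak of height 58 in the TGFBR2 window and the peak of height 40 in the SMAD3 window, and the SMAD3 peak sits exactly at the bound. The interval holds the share of the list, but it treats the 14 peaks as independent, and peaks of the same window share their surroundings. No conclusion is drawn from it, or from the like interval for width below.

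The median width was 690.0 bp among the 14 peaks and 611 bp in the list. Of the 14, 2 were 900 bp or wider, or 14.3% (4.01 to 39.9), against 8.45% of the list. Both were far beyond that bound, at 1711 bp in the TGFB2 window and 1641 bp in the SMAD3 window, and only 36 peaks of the list exceeded 1600 bp. Their heights were 25 and 17. The 2 wide peaks and the 2 peaks of height 40 or more were thus different peaks. How many peaks of the list were both wide and tall was not counted, so nothing is drawn from this.

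**Figure D4:**
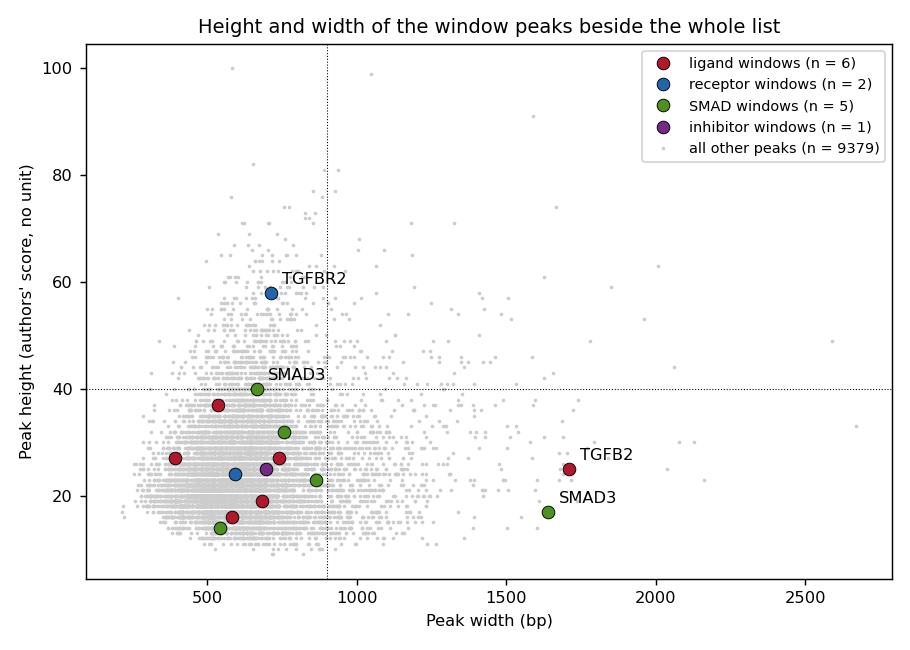
Height (y axis, the authors' score) against width in bp (x axis) for the 14 peaks in the gene windows (large points, coloured by the role of the gene) and the 9379 other peaks (small grey points), with dotted lines at a height of 40 and a width of 900 bp. The labelled points are the peaks of height 58 (TGFBR2) and 40 (SMAD3) and the peaks of 1711 bp (TGFB2) and 1641 bp (SMAD3), and the rest of the large points lie below both bounds.

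The last comparison was how closely peaks were grouped. With intervals joined where the gap was 12500 bp or less, 7 of 14, or 50.0%, fell in a group of at least 2 peaks, against 23.1% of the list. Groups of 3 or more took in 5 of 14, or 35.7%, against 6.60%, and all 5 were in the TGFB2 window. Of these 5, 2 were in a group of 3 only through the peak of height 42 just outside that window. Peaks of 1 window share their surroundings, so these counts are not separate from the densities given above.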

How the data were processed

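ChIP-seq of Flag-tagged YAP-5SA and input DNA from MCF10A cells gave 1 library each. BWA 0.6.1, MACS and the build hg19 are named in the submitters' processing notes. Settings of MACS, duplicate handling and the use of the input: not given in the sources used here. The deposited file has 1 track of summits and 1 of intervals, per the file headers. The authors' score per summit, called the height, is a whole number with no stated unit. The 2 tracks were joined by line order, and each summit lay inside its interval. Summits are printed as listed, and interval starts are 1-based.

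The members, gene lists and settings were chosen with earlier results of these data known. All 14 peaks in the windows are described. Densities used the distance from first to last summit of a chromosome less its longest peak-free stretch. Tiles began at the first summit, and those wholly inside that stretch were left out. Promoters and gene neighbours are from RefSeq tables of GRCh38.p14, and no coordinate was converted. Motifs were searched on both strands. Joining, tiling and window counts were checked on simulated data. The software was pandas 2.3.3, numpy 2.4.6, scipy 1.17.1 and matplotlib 3.10.9 under Python 3.11.15.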

Additional observations from a re-analysis of the deposited data

How the results depend on the processing

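No paired analysis was possible because each group has a single library, so no replicate could be left out either. Counts, medians and ratios were taken as moved when they changed by over 1.5 times or went to or from 0, and the share of tall peaks when it left its 95% Wilson interval. As that interval runs from 4.01 to 39.9, the share could hardly count as moved, and its staying inside says little. With windows shortened by 20.0 kb at both edges SMAD7 had 0 peaks, and with windows lengthened by as much TGFBR1 had 1. Keeping only peaks above the list median left 8 peaks in all, 1 for TGFBR2 and 2 for SMAD3, by construction, and gave a share of tall peaks of 25%, against 14.3% for all, inside that interval. This share rises in any set when lower peaks are dropped. Over the list, 814 of the 4278 peaks above the median were tall. Joining at 25 kb gave 5 groups in place of 3. The longer TEAD core was in the promoter of 1 member in place of 2. Without both the TGFB2 and SMAD3 windows the density ratio was 0.98. The other 63 of 71 values stayed within those bounds and none reversed, which a count cannot do. Some of the 63 could not move. An empty window stays at 0 when shortened or when fewer peaks are kept. Joining intervals at most 1 kb apart could join none of the 14, whose smallest gap was 2587 bp. Under the other settings the density ratio ran from 2.05, without the TGFB2 window, to 3.68, for peaks above the median. Leaving out windows, the comparison with the own chromosome and moved tiles were added after seeing the data. Unknown depth and the single library limit all values.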

Other observations

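The wide, low peak in the SMAD3 window, of 1641 bp, also differed in its summit. Summits in the list lie on a grid of 32 bp or at its middle, except for 69 of 9393, and its summit at 67341912 is 1 of the 69, the one case among the 14. That summit lay 1016 bp from the start of the interval and 625 bp from its end. Another wide peak near a member, of 1471 bp and height 21, lay 240.0 kb before the SMAD7 window, and 62 peaks of the list were as wide or wider, itself included.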
